A study of Homo sapiens with 12 samples.

Results

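The genes described here encode TRAIL, death receptors and the first proteins those receptors recruit. They were chosen by name, as the probe sets listed for TNFSF10, TNFRSF10A, TNFRSF10B, TNFRSF10C, TNFRSF10D, FAS, TNFRSF1A, FADD, TRADD and CFLAR. Of these 10 genes, 9 were measured, by 29 probe sets, among 11963 genes tested in all. TNFRSF10A was not analysed here. RNA came from MDA-MB-231, an established human breast cancer cell line with mesenchymal features, grown and treated for 24 h in 4 ways. One group received 5 uM SAHA together with 2.5 mM pargyline, one 5 uM SAHA, one 2.5 mM pargyline and one the vehicle DMSO, with 3 biological replicates and 3 arrays in each. SAHA (vorinostat) inhibits histone deacetylases. Pargyline blocks monoamine oxidases and has also been used against the related histone demethylase LSD1. All groups are the same cell line, so no normal breast cell stands beside it.

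Death receptors are surface proteins of the tumour necrosis factor receptor family whose inner part carries a death domain. When a trimeric ligand such as TRAIL (gene TNFSF10) binds DR4 or DR5 (TNFRSF10A and TNFRSF10B), the receptor recruits the adaptor FADD, which in turn gathers initiator caspases and starts apoptosis. TNFRSF10C and TNFRSF10D encode decoy receptors that bind TRAIL without passing on the death signal. FAS is the receptor of the Fas ligand and also works through FADD. TNFRSF1A is the main receptor for tumour necrosis factor and uses the adaptor TRADD. CFLAR encodes c-FLIP, a caspase-like protein without protease activity that competes for FADD and holds the initiator caspases in check.

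Values are log2 intensities as the authors deposited them, so a difference of 1 is a 2-fold change. Array medians lay between 5.15 and 5.38, and arrays of one group had correlations of 0.998 to 0.999 over all probe sets. Each gene was read by its brightest probe set, and a gene is said to have risen or fallen where limma's two-sided moderated test gave an adjusted p under 0.05 (Benjamini-Hochberg, all 11963 genes). Of 6 genes fixed as markers of the cell line, 5 were measured and all 5 lay above the median gene level of 7.06. The 4 measured leukocyte markers were under 3 on every array. Of 6 luminal breast markers, GATA3 was the 1 whose mean lay above the median gene level. GATA3 averaged 5.75 with both drugs, 6.27 with SAHA, 9.42 with pargyline and 9.23 with DMSO. ERBB2 moved alike, with 5.06 with both drugs, 5.19 with SAHA, 8.21 with pargyline and 8.28 with DMSO. Of the line's own markers, CD44 averaged 12.20, 11.56, 13.79 and 13.67, CAV1 12.99, 13.25, 14.44 and 14.63, and MSN 11.73, 11.82, 13.22 and 13.06 in that order of groups. AXL averaged 12.81, 13.035, 13.65 and 13.84, while VIM stayed nearly level at 14.84, 14.88, 14.80 and 14.90. The part of these marker changes in the results was not tested.

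SAHA was set against DMSO to see what the deacetylase inhibitor changed on its own. It raised the receptor gene TNFRSF10B and the adaptor gene TRADD, and lowered the inhibitor gene CFLAR, the receptor gene TNFRSF1A and the adaptor gene FADD. These 2 rises and 3 falls among 9 genes stand beside 23% of all genes higher and 23.1% lower. The share called, 55.6% of the 9 against 46.2% of all genes, was thus near the background. Pargyline against DMSO gave 3 rises, in TNFRSF10B, TNFRSF1A and TRADD, and 0 falls by limma (0 also at an unadjusted p under 0.05), beside 8.48% of all genes higher and 7.45% lower. Both drugs together against DMSO gave 1 rise, in TNFRSF10B, and 3 falls, in CFLAR, FADD and TNFRSF1A, beside 24.3% of all genes higher and 24% lower. The comparisons with DMSO share its 3 arrays. The labels call the replicates biological without naming separate cultures, so p-values measure the spread between these samples.

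**Figure D1:**
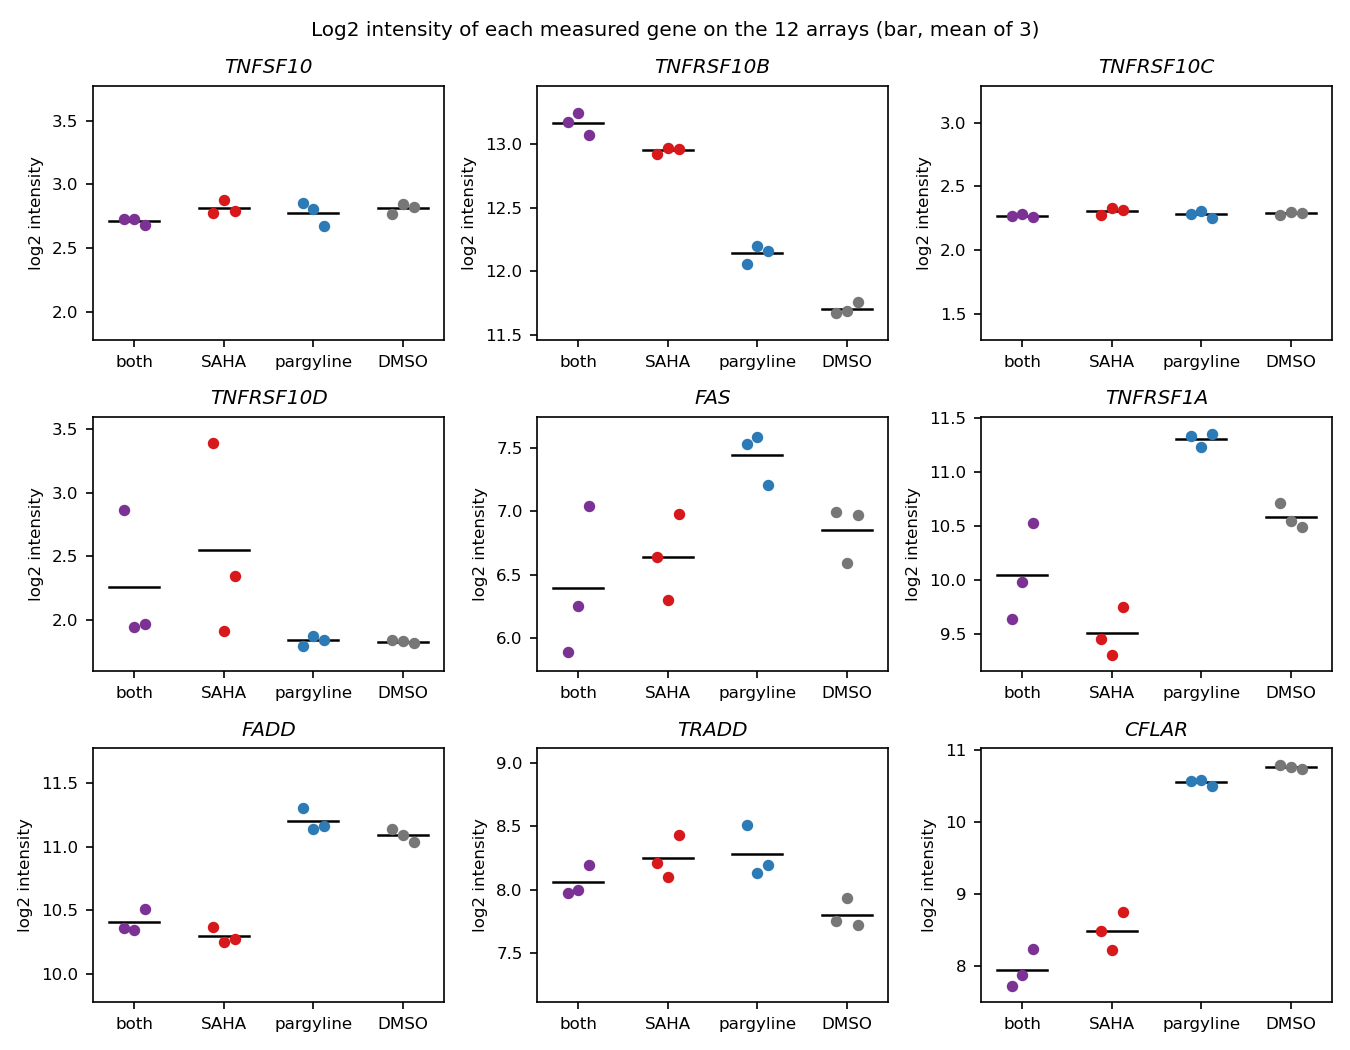
Log2 intensity (vertical axis, scaled separately in each panel) of the 9 measured genes on the 12 arrays, by treatment (horizontal axis). Points are arrays and bars are means of 3; TNFRSF10B points of the 4 groups do not overlap, and CFLAR and FADD lie lower in both groups that received SAHA than in the other groups.

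TNFSF10, the TRAIL ligand gene, was read at a low level in every group. Its brightest probe set gave 2.72, 2.73 and 2.68 with both drugs, 2.78, 2.87 and 2.79 with SAHA, 2.85, 2.81 and 2.67 with pargyline, and 2.77, 2.84 and 2.82 with DMSO. All 12 values were under 3, a range that held the mean level of 35.8% of all genes, and the groups differed by no more than 0.10 on the log2 scale. Against DMSO the log2 fold change was -0.10 with both drugs (95% interval -0.21 to 0.01), 0.00 with SAHA (-0.11 to 0.11) and -0.03 with pargyline (-0.14 to 0.07). With each array centred on its median these values became -0.26 (adjusted p = 0.00371), -0.10 and -0.16 (adjusted p = 0.0403), but that centring moved the median of all genes to -0.17, -0.10 and -0.15. Quantile normalization gave -0.02 for SAHA, and a fit of only the arrays compared gave adjusted p = 0.0371 for both drugs. The 2 further probe sets of TNFSF10 were under 3 on all arrays too. No treatment thus raised the ligand's RNA signal above 3 on any probe set, while a fall or a small rise could not be read at this signal.

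TNFRSF10B, which encodes the TRAIL receptor DR5, rose with each drug and most with both. Its brightest probe set read 13.17, 13.24 and 13.07 with both drugs, 12.92, 12.97 and 12.96 with SAHA, 12.06, 12.20 and 12.16 with pargyline, and 11.67, 11.69 and 11.76 with DMSO. The 4 groups did not overlap, in the order both drugs, SAHA, pargyline and DMSO. In bulk RNA, more cells expressing a gene and more RNA per cell cannot be told apart. Against DMSO the level was 2.74-fold higher with both drugs (log2 fold change 1.46 ± 0.05 SE, adjusted p = 2.04e-08 in limma). SAHA alone raised it 2.37-fold (1.24 ± 0.05, adjusted p = 5.78e-08 in limma), and pargyline alone 1.35-fold (0.43 ± 0.05, adjusted p = 0.000588 in limma).

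Adding one drug to the other also raised TNFRSF10B. Both drugs gave 2.03-fold more than pargyline alone (1.02 ± 0.05) and 1.16-fold more than SAHA alone (0.21 ± 0.05, adjusted p = 0.0177 in limma). Both drugs against SAHA gave 1 rise and 1 fall among the 9 genes, beside 7.88% of all genes higher and 8.71% lower. The small rise over SAHA did not pass with array medians set equal (0.16, adjusted p = 0.113) or with only those arrays fitted (adjusted p = 0.0559). It was also lost without SAHA replicate 1 (adjusted p = 0.0597) or without replicate 1 or 2 of both drugs (0.0531 and 0.0679).

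The further probe sets of TNFRSF10B had the same order of groups, without overlap between neighbours. Probe set 210405_x_at averaged 8.55 with both drugs, 7.84 with SAHA, 6.82 with pargyline and 6.37 with DMSO. Its log2 fold change was 2.18 ± 0.13 for both drugs against DMSO, 1.47 ± 0.13 for SAHA, 0.45 ± 0.13 for pargyline and 0.71 ± 0.13 for both drugs against SAHA. Probe set 209294_x_at gave 1.80, 1.31, 0.31 and 0.48 for the same comparisons. Tested among all single-gene probe sets, all 3 rose against DMSO with both drugs (beside 21.9% of all probe sets) and with SAHA (beside 20.5%). With pargyline 1 of 3 rose (beside 7.41%). All 3 also rose with both drugs against SAHA, beside 1361 of 19064 probe sets higher. The names of probe sets ending in x_at mark probes that can also bind other transcripts.

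**Figure D2:**
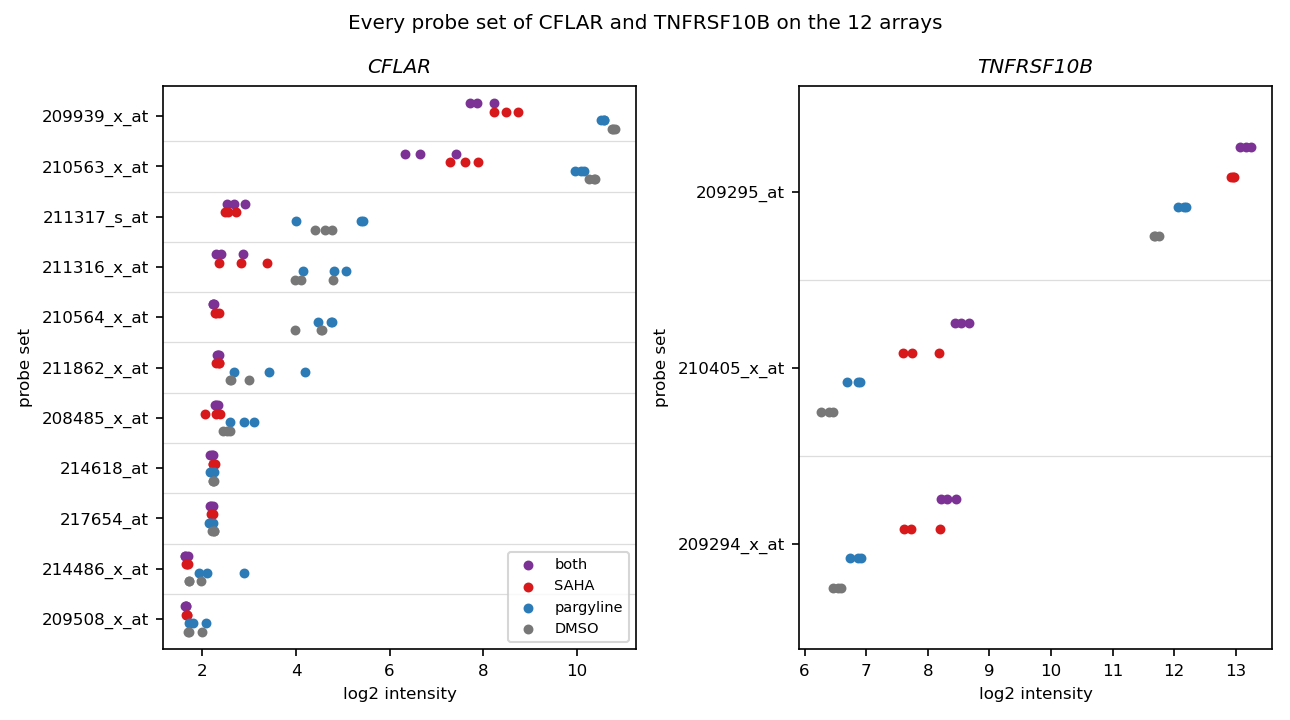
Log2 intensity (horizontal axis) of every single-gene probe set of CFLAR (left, 11 probe sets) and TNFRSF10B (right, 3 probe sets) on the 12 arrays, one point per array, coloured by treatment. The brightest CFLAR probe sets lie lower in both groups that received SAHA, and 4 of the 11 stay under 3 on all arrays.

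The decoy receptor genes were dim. TNFRSF10C read between 2.25 and 2.33 on all 12 arrays with its brighter probe set, and between 2.18 and 2.27 with the other. Its log2 fold change against DMSO was -0.02 with both drugs (95% interval -0.07 to 0.03), 0.02 with SAHA (-0.03 to 0.07) and -0.01 with pargyline (-0.06 to 0.05). Array centring gave -0.18 (adjusted p = 0.00344), -0.08 (0.0893) and -0.14 (0.0210) for TNFRSF10C, beside the shift of the median gene with that centring. TNFRSF10D had 1 probe set, which gave 2.87, 1.94 and 1.97 with both drugs, 3.39, 1.91 and 2.34 with SAHA, 1.80, 1.87 and 1.84 with pargyline, and 1.84, 1.83 and 1.81 with DMSO. Replicate 1 was the high array in both groups that received SAHA, and every array of those groups lay above every array of the other groups. No comparison of TNFRSF10D passed, and its log2 fold change for SAHA against DMSO was 0.72 ± 0.35 (adjusted p = 0.136 in limma). Without SAHA replicate 1 that value was 0.30 (adjusted p = 0.460), and without SAHA replicate 2 it was 1.04 (adjusted p = 0.0333). For both drugs against DMSO it was 0.43, and 0.13 without replicate 1 of both drugs.

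FAS, the Fas ligand receptor gene, fell with both drugs against pargyline alone, and no comparison with DMSO passed. Its brightest probe set read 5.89, 6.25 and 7.04 with both drugs, 6.64, 6.30 and 6.98 with SAHA, 7.52, 7.59 and 7.21 with pargyline, and 6.995, 6.59 and 6.97 with DMSO. All 3 pargyline arrays were above all arrays of the other groups, while both drugs, SAHA and DMSO overlapped. Both drugs gave 2.06-fold less than pargyline alone (log2 fold change -1.04 ± 0.28, adjusted p = 0.0111 in limma). This was 1 of 4 falls, with CFLAR, TNFRSF1A and FADD, beside 1 rise, TNFRSF10B, in a comparison where 23.6% of all genes were lower and 23.9% higher.

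Against DMSO the change of FAS was -0.46 with both drugs (95% interval -1.09 to 0.17), -0.21 with SAHA (-0.85 to 0.42) and 0.59 with pargyline (-0.05 to 1.22). The value for both drugs turned on single arrays: it was -0.21 without replicate 1 of both drugs (adjusted p = 0.597) and -0.78 without replicate 3 (adjusted p = 0.0163). With all arrays and array centring it was -0.61 (adjusted p = 0.0463). Among the further probe sets, 215719_x_at and 216252_x_at fell for both drugs against pargyline (-1.11 ± 0.30 and -0.93 ± 0.30, beside 22% of all probe sets lower), and 204781_s_at gave -0.51 ± 0.24 (adjusted p = 0.117 over all probe sets).

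TNFRSF1A, the tumour necrosis factor receptor gene, moved in opposite directions with the drugs. It read 9.65, 9.99 and 10.53 with both drugs, 9.46, 9.31 and 9.75 with SAHA, 11.34, 11.23 and 11.36 with pargyline, and 10.71, 10.55 and 10.49 with DMSO. Pargyline lay above DMSO and SAHA below it without overlap, whereas both drugs overlapped with SAHA and with DMSO. SAHA lowered the gene 2.11-fold (-1.08 ± 0.20, adjusted p = 0.00112 in limma), and pargyline raised it 1.65-fold (0.72 ± 0.20, adjusted p = 0.0341 in limma). Both drugs lowered it 1.45-fold against DMSO (-0.53 ± 0.20, adjusted p = 0.0483 in limma) and 2.39-fold against pargyline (-1.26 ± 0.20, adjusted p = 0.000405 in limma).

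Leaving out any 1 of the 3 pargyline or 3 DMSO arrays ended the pargyline call (adjusted p between 0.0647 and 0.0993), while the log2 fold change stayed between 0.68 and 0.79. The call for both drugs against DMSO was lost with quantile normalization (adjusted p = 0.0650), with every probe set tested (0.0529) and with only those arrays fitted (0.127). It was also lost without any 1 DMSO array (0.0707 to 0.138), and without replicate 1 of both drugs (-0.33, adjusted p = 0.164) or replicate 2 (-0.50, adjusted p = 0.122). Without replicate 3 of both drugs it was -0.77 (adjusted p = 0.00162). Both drugs against SAHA gave 0.54 (95% interval 0.10 to 0.99, adjusted p = 0.0964 in limma), which became 0.75 (adjusted p = 0.0224) without replicate 1 of both drugs and 0.31 (adjusted p = 0.205) without replicate 3.

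FADD, the adaptor shared by FAS and the TRAIL receptors, fell wherever SAHA was given. It read 10.36, 10.35 and 10.51 with both drugs, 10.37, 10.25 and 10.28 with SAHA, 11.30, 11.14 and 11.17 with pargyline, and 11.14, 11.09 and 11.04 with DMSO. All 6 arrays with SAHA lay below all 6 without it. SAHA lowered FADD 1.73-fold (-0.79 ± 0.06, adjusted p = 2.91e-06 in limma) and both drugs lowered it 1.61-fold (-0.69 ± 0.06, adjusted p = 6.23e-06 in limma), each against DMSO. Pargyline gave 0.11 against DMSO (95% interval -0.02 to 0.24), or -0.02 with array centring, and both drugs gave 0.11 against SAHA (-0.03 to 0.24).

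TRADD, the adaptor of the tumour necrosis factor receptor, was slightly higher with each drug alone. It read 7.97, 8.002 and 8.20 with both drugs, 8.21, 8.10 and 8.43 with SAHA, 8.51, 8.13 and 8.19 with pargyline, and 7.76, 7.93 and 7.72 with DMSO. Every treated array was above every DMSO array, and the 3 treated groups overlapped. The rise was 1.36-fold with SAHA (0.44 ± 0.12, adjusted p = 0.0111 in limma) and 1.39-fold with pargyline (0.47 ± 0.12, adjusted p = 0.0248 in limma), and both drugs gave 0.25 ± 0.12 (95% interval -0.01 to 0.52, adjusted p = 0.113 in limma), while the mean of all probe sets passed (0.19, adjusted p = 0.0113). The pargyline call was lost without DMSO replicate 1 (adjusted p = 0.0831), DMSO replicate 3 (0.0714) or pargyline replicate 1 (0.0694). Probe set 1729_at gave 0.32 ± 0.09 with both drugs, 0.44 ± 0.09 with SAHA and 0.42 ± 0.09 with pargyline, and all 3 passed over all probe sets. The remaining probe set of TRADD was under 3 on all arrays.

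CFLAR, which encodes the inhibitor c-FLIP, showed the largest change among the 9 genes when each was read by its brightest probe set. For CFLAR this was 209939_x_at. It read 7.72, 7.87 and 8.24 with both drugs, 8.48, 8.22 and 8.75 with SAHA, 10.58, 10.59 and 10.50 with pargyline, and 10.80, 10.77 and 10.74 with DMSO. Both groups that received SAHA lay far below the other groups, and they overlapped with each other only in that the highest array with both drugs exceeded the lowest with SAHA. Against DMSO the level was 7.11-fold lower with both drugs (-2.83 ± 0.14, adjusted p = 2.01e-07 in limma) and 4.89-fold lower with SAHA (-2.29 ± 0.14, adjusted p = 9.07e-07 in limma). Pargyline gave -0.22 (95% interval -0.54 to 0.11, adjusted p = 0.406 in limma), although its arrays lay below those of DMSO without overlap. That comparison passed with only the pargyline and DMSO arrays fitted (adjusted p = 0.0186) and with array centring (-0.35, adjusted p = 0.0366).

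Both drugs gave 1.45-fold less CFLAR than SAHA alone (-0.54 ± 0.14, adjusted p = 0.0310 in limma). The call was lost with the mean of all probe sets (-0.15, adjusted p = 0.404) and with only those arrays fitted (adjusted p = 0.150). Leaving out SAHA replicate 1 or 3 also ended it (adjusted p = 0.0771 and 0.0856), as did leaving out replicate 1 or 2 of both drugs (0.0969 and 0.105).

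CFLAR, a gene with many splice forms, has 11 probe sets on the array. Over all probe sets, 5 of the 11 fell with SAHA, the same number fell with both drugs, and 0 rose in either comparison. Among all probe sets 22.5% were lower with both drugs and 21.6% with SAHA. The second brightest, 210563_x_at, averaged 6.80 with both drugs, 7.60 with SAHA, 10.07 with pargyline and 10.34 with DMSO. Its log2 fold change was -3.53 ± 0.24 for both drugs and -2.74 ± 0.24 for SAHA against DMSO, and -0.79 ± 0.24 for both drugs against SAHA (adjusted p = 0.0610 over all probe sets). Among 3 dimmer sets, the log2 fold change with both drugs and with SAHA was -1.89 and -2.01 for 211317_s_at, -2.12 and -2.05 for 210564_x_at, and -1.77 and -1.44 for 211316_x_at. In both groups that received SAHA, 211317_s_at and 210564_x_at were under 3 on every array. With pargyline 0 of the 11 passed, and their log2 fold changes ran from -0.27 to 0.69, with both bright sets below 0 and the mean of all probe sets at 0.19. Of the 11 probe sets, 4 were under 3 on all 12 arrays, among them 214618_at and 217654_at. Of the 5 that fell, all but 211317_s_at have names ending in x_at, which mark probes that can also bind other transcripts. Over 15 alternatives the log2 fold change of CFLAR against DMSO ran from -2.99 to -1.19 with both drugs. With SAHA it ran from -2.42 to -1.05, and all 15 passed in each comparison.

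The promoters of CFLAR, FADD and TNFRSF1A are shown because these are the 3 genes that fell with SAHA. RefSeq promoters (GRCh38.p14, from 250 bases before to 50 bases after a transcript start, read 5′ to 3′ on the gene's strand) matched 5 of the 10 genes. Those of the TRAIL receptor genes are not shown. Capitals mark each GGGCGG or its reverse complement CCGCCC, the GC box, which 45% of the 35116 promoters of this length hold on either strand. The CFLAR window is chr2:201118466-201118765 on the plus strand and holds 1 GC box, the FADD window is chr11:70203046-70203345 on the plus strand and holds 2, and the TNFRSF1A window is chr12:6342027-6342326 on the minus strand and holds 0.
CFLAR: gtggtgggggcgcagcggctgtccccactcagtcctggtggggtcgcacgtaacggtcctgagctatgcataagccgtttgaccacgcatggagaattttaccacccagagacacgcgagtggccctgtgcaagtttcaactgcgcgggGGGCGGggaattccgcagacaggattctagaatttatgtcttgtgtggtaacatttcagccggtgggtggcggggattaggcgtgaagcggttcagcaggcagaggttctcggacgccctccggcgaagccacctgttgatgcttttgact
FADD: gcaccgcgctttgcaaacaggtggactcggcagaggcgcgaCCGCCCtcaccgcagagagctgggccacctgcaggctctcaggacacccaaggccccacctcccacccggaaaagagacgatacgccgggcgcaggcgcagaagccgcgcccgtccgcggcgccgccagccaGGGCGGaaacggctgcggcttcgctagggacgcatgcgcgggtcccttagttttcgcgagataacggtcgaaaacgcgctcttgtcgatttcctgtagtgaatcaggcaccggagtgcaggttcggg
TNFRSF1A: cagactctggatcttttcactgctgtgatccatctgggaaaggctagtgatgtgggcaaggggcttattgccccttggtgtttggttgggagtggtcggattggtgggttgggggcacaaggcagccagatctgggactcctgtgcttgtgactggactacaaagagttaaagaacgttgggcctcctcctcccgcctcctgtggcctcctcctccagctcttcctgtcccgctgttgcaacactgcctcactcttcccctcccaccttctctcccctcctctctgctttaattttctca
Of the 3 further CFLAR starts, the most downstream holds 2 GC boxes and the others 0. The sequence TGACTCA, searched on both strands, was in 4.95% of all promoters and in none of the 10 promoter windows of CFLAR, FADD, TNFRSF1A, FAS and TNFSF10. A match in these windows describes the letters only.

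**Figure D3:**
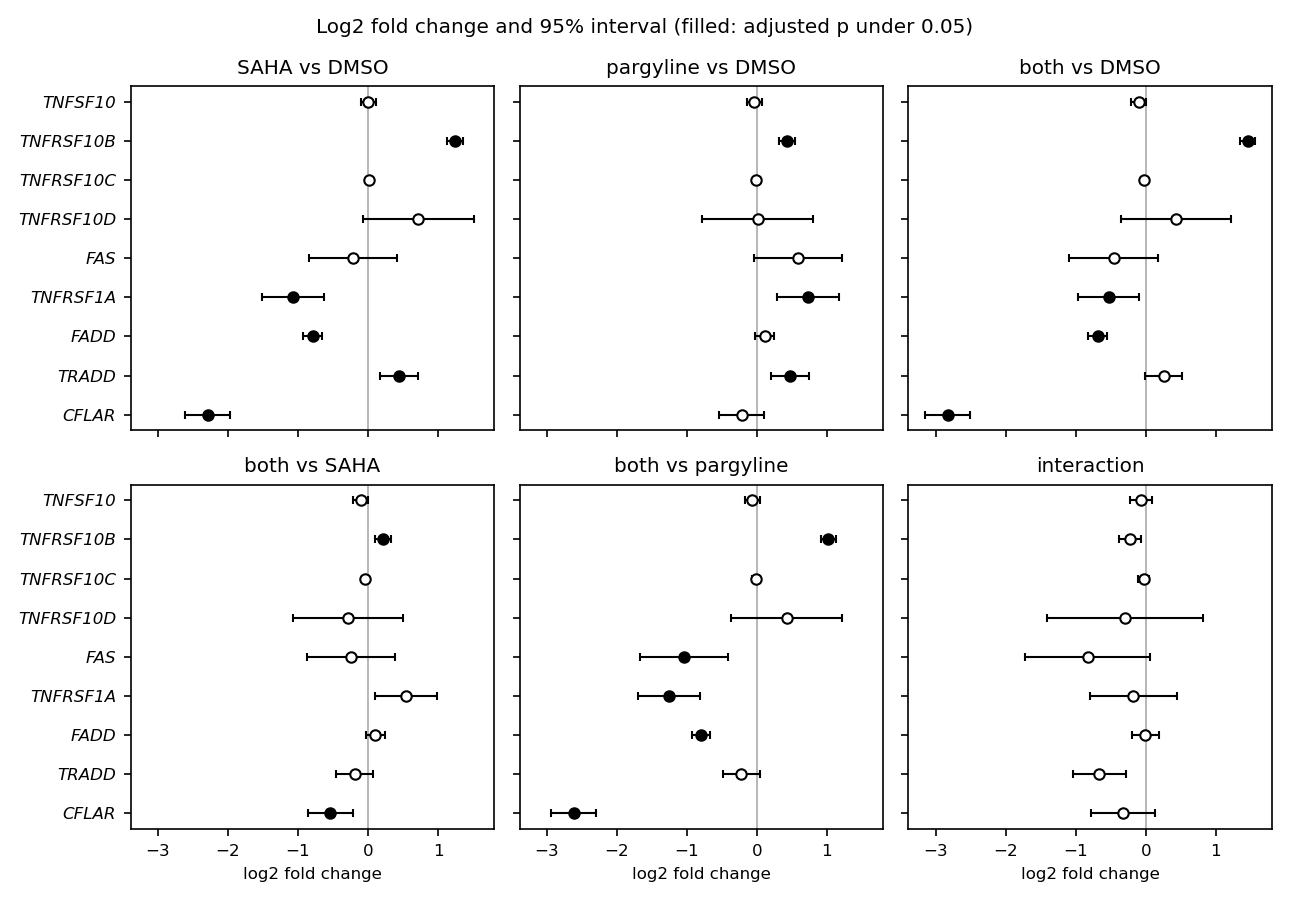
Log2 fold change (horizontal axis) of the 9 measured genes (vertical axis) in the 6 comparisons, with 95% intervals from limma. Filled points have an adjusted p under 0.05 over all genes; TNFRSF10B lies right of 0 and CFLAR left of 0 in the comparisons of SAHA and of both drugs with DMSO, and no point is filled for the interaction.

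The interaction asks whether both drugs together changed a gene by more or less than the sum of the single-drug effects on the log2 scale. By limma 0 of the 9 genes passed, beside 1.28% of all genes higher and 2.44% lower. At an unadjusted p under 0.05, TNFRSF10B and TRADD were the 2 genes. For TNFRSF10B the interaction was -0.22 ± 0.07 (adjusted p = 0.128 in limma), but its further probe sets gave 0.26 ± 0.19 and 0.18 ± 0.19, so its sign depended on the probe set. For TRADD it was -0.66 ± 0.17 (adjusted p = 0.0667 in limma), and -0.54 ± 0.13 with probe set 1729_at. The TRADD value passed without dim genes (adjusted p = 0.0443), with the mean of all probe sets (-0.40, adjusted p = 0.0197) and without replicate 3 of both drugs (-0.73, adjusted p = 0.0484). CFLAR gave -0.32 (95% interval -0.78 to 0.13), FADD -0.01 (-0.19 to 0.18), TNFRSF1A -0.18 (-0.80 to 0.44) and FAS -0.83 (-1.72 to 0.07).

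Genes with the most similar course over the 4 groups were found by the root mean square difference of the group means, each centred on the gene's own mean, among 6421 brighter genes. For TNFRSF10B the nearest were ARHGEF3 (0.0207), SEL1L (0.0230) and MAOA (0.0298), the last encoding a monoamine oxidase. For CFLAR they were EOGT (0.0185), CYP20A1 (0.0584) and CTPS1 (0.0694). For TNFRSF1A they were MAN2A1 (0.0380), PHTF1 (0.0827) and OSBPL1A (0.0829), and for FAS P2RX4 (0.0483), SOS2 (0.0801) and TUBGCP2 (0.0888).

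Beyond these genes, 65 of 75 genes on 7 lists of the same pathway were measured. With SAHA 19 rose and 17 fell against DMSO, 55.4% beside 46.2% of all genes. With both drugs 24 rose and 17 fell, 63.1% beside 48.3%. With pargyline 10 rose and 2 fell, 18.5% beside 15.9%. The median log2 fold change of the 65 was -0.0034, 0.02 and 0.01 for these comparisons, and that of all genes 0.00, -0.01 and -0.02. These comparisons share the DMSO arrays. The lists were chosen with earlier results of these data known. The shares of all genes include the 35.8% of genes with a mean level under 3. Shares were not compared at like levels, so the differences do not measure an enrichment of the pathway.

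**Figure D4:**
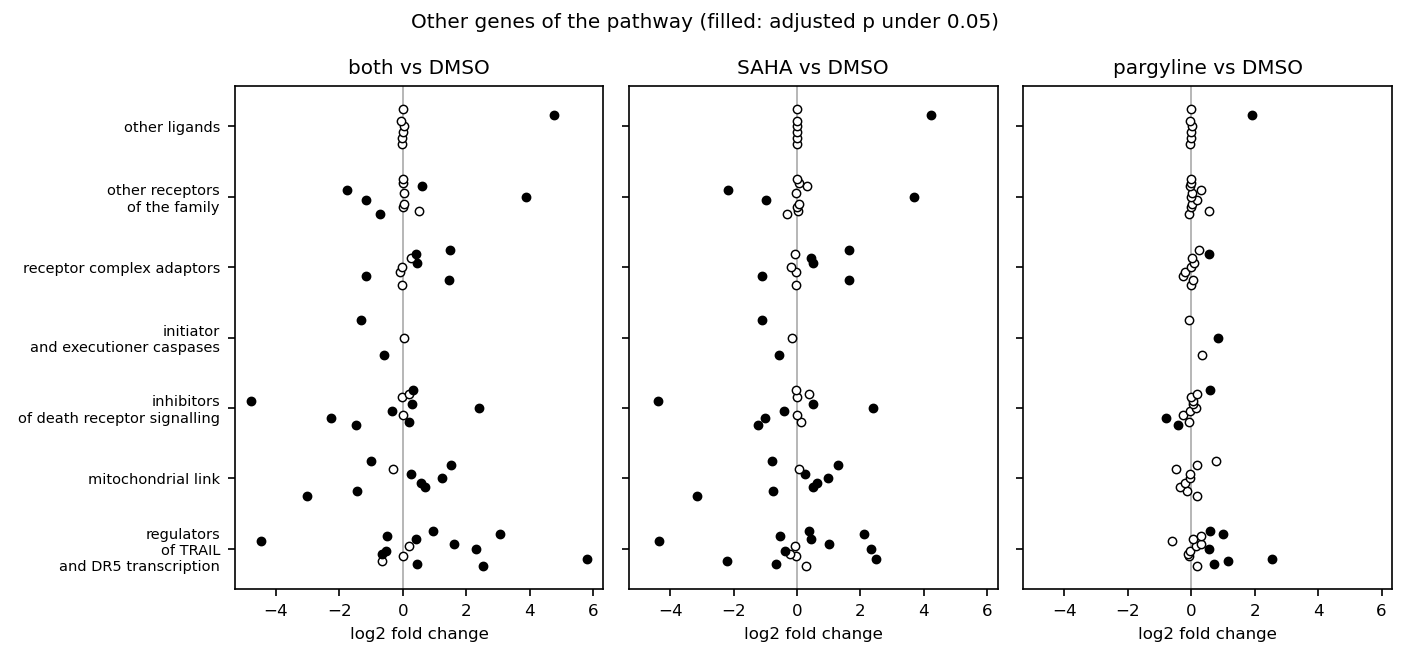
Log2 fold change against DMSO (horizontal axis) of the 65 other measured genes of the pathway, 1 point per gene, by list (vertical axis) and treatment (panels). Filled points have an adjusted p under 0.05 over all genes; most ligand genes lie at 0, while inhibitor and mitochondrial genes spread to both sides with SAHA and with both drugs.

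The counts by list stand beside 24.3% of all genes higher and 24% lower with both drugs, 23% and 23.1% with SAHA, and 8.48% and 7.45% with pargyline, and no list was tested as a group. Of 7 other ligand genes, 1 rose in each comparison with DMSO, and it was TNFSF9, which encodes the ligand of the costimulatory receptor CD137. TNFSF9 read 11.56, 11.51 and 10.13 with both drugs, 10.83, 10.91 and 9.80 with SAHA, 8.40, 8.21 and 8.02 with pargyline, and 6.55, 6.46 and 5.87 with DMSO. It rose by 4.77 ± 0.42 with both drugs, 4.22 ± 0.42 with SAHA and 1.92 ± 0.42 with pargyline. Of 11 other receptor genes of the family, 1 rose and 2 fell with SAHA, and 0 passed with pargyline by limma, while 1 was higher at an unadjusted p under 0.05. With both drugs 2 rose and 3 fell. The rise with SAHA was in TNFRSF9, the receptor of that ligand, named after its value was seen, which read 6.81, 7.78 and 6.53 with both drugs, 6.31, 6.81 and 7.44 with SAHA, and 3.11, 3.29 and 3.05 with DMSO. The DMSO values lie near the low end of the scale, where a log2 difference can understate a change, and the differences were 3.89 ± 0.34 with both drugs and 3.70 ± 0.34 with SAHA. The falls with SAHA were in LTBR, the lymphotoxin beta receptor (-1.74 ± 0.22 with both drugs and -2.16 ± 0.22 with SAHA), and in TNFRSF12A, the receptor of TWEAK (-1.15 ± 0.12 and -0.97 ± 0.12). With both drugs CD40, a costimulatory receptor, rose too (0.59), and TNFRSF11B, a decoy receptor named after its value was seen, fell by 0.70 on the log2 scale.

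Of 9 measured adaptors and regulators of the receptor complex, 4 rose and 1 fell with both drugs (beside 24.3% of all genes higher and 24% lower) as with SAHA (23% and 23.1%). CYLD, a deubiquitinase of the tumour necrosis factor receptor complex, rose by 1.49 ± 0.14 with both drugs and 1.63 ± 0.14 with SAHA. CRADD, an adaptor with a death domain, rose by 1.44 ± 0.16 and 1.64 ± 0.16, and DAXX, named for binding the FAS death domain, fell (-1.16 and -1.10). RBCK1, a subunit of the linear ubiquitin ligase that acts on this complex, was the 1 that rose with pargyline (0.56 ± 0.10).

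Of 3 measured caspases, 2 fell and 0 rose with SAHA and with both drugs. CASP8, the initiator caspase that FADD recruits, read 9.73, 10.14 and 10.34 with both drugs, 9.82, 10.11 and 10.39 with SAHA, and 10.53, 10.66 and 10.80 with DMSO. Its log2 fold change was -0.59 ± 0.19 with both drugs (adjusted p = 0.0269 in limma) and -0.56 ± 0.19 with SAHA (adjusted p = 0.0372 in limma), without overlap with DMSO. The SAHA call was lost with quantile normalization (adjusted p = 0.0610) and without DMSO replicate 2 or 3 or SAHA replicate 1 or 2 (0.0821 to 0.136). The call for both drugs was lost without DMSO replicate 2 or 3 or replicate 1 or 2 of both drugs (0.0505 to 0.0993). CASP6, an executioner, fell with both drugs (-1.31 ± 0.08) and with SAHA (-1.09 ± 0.08). With pargyline the 1 that rose was the dim CASP10, named after its value was seen (0.84 ± 0.12, group means 3.86 with pargyline and 3.01 with DMSO).

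Of 11 inhibitors of death receptor signalling, 4 fell and 2 rose with SAHA, and 4 fell and 4 rose with both drugs. With pargyline 2 fell and 1 rose, beside 7.45% of all genes lower and 8.48% higher. FAIM, a gene named for inhibiting FAS-induced apoptosis, had the largest fall of the 11, with -4.77 ± 0.24 for both drugs and -4.39 ± 0.24 for SAHA. XIAP, which blocks executioner caspases, fell with both drugs (-1.46 ± 0.10), SAHA (-1.24 ± 0.10) and pargyline (-0.41 ± 0.10). The pargyline value of XIAP did not pass with a trended robust prior (adjusted p = 0.0548), nor without any 1 DMSO array or pargyline replicate 1 (0.0571 to 0.0637). BIRC5, which encodes survivin, fell with the same treatments (-2.26 ± 0.23, -1.01 ± 0.23 and -0.81 ± 0.23), and the pargyline call was lost without any 1 of its 6 arrays (adjusted p 0.0719 to 0.137). TNFAIP3, which encodes the ubiquitin-editing enzyme A20, rose by 2.40 ± 0.21 with both drugs and 2.38 ± 0.21 with SAHA. The rise with pargyline was in LGALS3 (0.58), which read 13.95, 13.77 and 13.86 with pargyline and 13.19, 13.31 and 13.32 with DMSO. It passed in all 15 alternatives, where XIAP passed in 10 and BIRC5 in 9 with pargyline.

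Of 9 genes that link the receptors to mitochondria, 5 rose and 3 fell with both drugs (beside 24.3% of all genes higher and 24% lower) and with SAHA (23% and 23.1%). With pargyline 0 passed by limma, while 1 was higher and 3 were lower at an unadjusted p under 0.05. BID, which caspases cleave to carry the signal to mitochondria, read 7.60, 6.80 and 7.62 with both drugs, 7.46, 7.01 and 7.22 with SAHA, 10.74, 10.45 and 10.48 with pargyline, and 10.44, 10.40 and 10.26 with DMSO. Both groups that received SAHA lay far below the others, with log2 fold changes of -3.03 ± 0.21 for both drugs and -3.14 ± 0.21 for SAHA against DMSO. BAX, an effector of the mitochondrial pore, fell too (-1.43 ± 0.14 and -0.77 ± 0.14). CASP9, the caspase of the apoptosome, rose by 1.53 ± 0.15 and 1.28 ± 0.15.

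Genes listed as regulators of TRAIL and DR5 transcription were followed beside TNFRSF10B. The list also holds CHAC1 and TRIB3, which are targets of a stress pathway, and the counts include them. Of 15, 8 rose and 4 fell with both drugs (beside 24.3% of all genes higher and 24% lower), and 6 rose and 5 fell with SAHA (23% and 23.1%). With pargyline 6 rose and 0 fell by limma (8.48% and 7.45%), and 7 were higher and 0 lower at an unadjusted p under 0.05. DDIT3 encodes CHOP, a stress factor known to act on the DR5 promoter. It read 10.74, 11.49 and 9.99 with both drugs, 8.42, 8.55 and 8.49 with SAHA, 8.53, 8.50 and 8.16 with pargyline, and 8.48, 8.39 and 7.78 with DMSO. The arrays with both drugs lay above all others, and the other groups overlapped. DDIT3 rose by 2.53 ± 0.33 with both drugs (adjusted p = 0.0001 in limma), and gave 0.27 ± 0.33 with SAHA and 0.18 ± 0.33 with pargyline (adjusted p = 0.665 and 0.785 in limma).

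ATF4, which acts upstream of CHOP, rose by 0.44 ± 0.13 with both drugs and 0.72 ± 0.13 with pargyline, and fell by 0.65 ± 0.13 with SAHA. The call for both drugs was lost with only those arrays fitted (adjusted p = 0.0644), with array centring (0.0962), and without DMSO replicate 3 (0.0692) or replicate 2 of both drugs (0.0509). CHAC1, a target of the same stress pathway, rose by 5.80 ± 0.50 with both drugs, 2.50 ± 0.50 with SAHA and 2.56 ± 0.50 with pargyline. TRIB3, another target of that pathway, read 7.85, 9.05 and 8.06 with both drugs, 6.68, 6.66 and 6.96 with SAHA, 10.28, 10.12 and 10.03 with pargyline, and 8.95, 9.44 and 8.53 with DMSO. It fell with SAHA (-2.20 ± 0.31), rose with pargyline (1.17 ± 0.31) and gave -0.65 ± 0.31 with both drugs (adjusted p = 0.114 in limma). The pargyline call of TRIB3 was lost without DMSO replicate 1 or 3 or any 1 pargyline array (adjusted p 0.0699 to 0.0908). NFKB1, which encodes a subunit of the factor NF-kB, fell with both drugs (-4.46 ± 0.36) and with SAHA (-4.36 ± 0.36). FOXO1, whose factor family can act on the TRAIL promoter, rose by 2.31 ± 0.09 and 2.32 ± 0.09 with these treatments. With pargyline FOXO1 read 6.59, 6.59 and 6.61, above the 6.13, 6.11 and 5.84 with DMSO. Whether any of these genes acted on TNFRSF10B or TNFSF10 was not tested.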

How the data were processed

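RNA from 12 samples of one cell line was hybridised to Affymetrix human expression arrays. The authors deposited log2 intensities per probe set, made with RMA per the submitters' processing notes; whether all arrays were normalized together is not given in the sources used here. Of 22277 probe sets, 62 were controls and 19064 were listed for a single gene, and the brightest per gene gave 11963 genes. Differences were fitted with limma 3.58.1 in R 4.3.3 on all 12 arrays, as group means with no block, and adjusted by Benjamini-Hochberg over all genes. The median SE was 0.077, and the number of arrays limits the precision. On simulated data for SAHA against DMSO over 11963 genes, 84% of 100 genes changed by 1 on the log2 scale were recovered. Of 100 genes changed by 0.5, 61% were recovered, and false calls numbered 5 in all. The changed genes were drawn from those above the median DMSO level, with independent noise. The other genes were unchanged, whereas 46.2% of genes passed in the data, so these rates describe the simulation only.

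Deviations of same-numbered arrays from their group means correlated at 0.257 to 0.535 between both drugs and SAHA and at 0.122 to 0.268 between pargyline and DMSO. Every such pair was over 0.1. Differently numbered arrays reached 0.252 between both drugs and SAHA and 0.0645 between pargyline and DMSO. The labels do not say that equal numbers belong together, so these values do not establish a pairing. Between the other groups 1 or 2 of 3 pairs passed 0.1, though all same-numbered pairs were above 0 (0.0807 to 0.329). The main fit did not pair arrays by number, and a fit with a replicate block is among the alternatives. The lists and the 10 genes were chosen with earlier results of these data known. All 10 are described where measured. From the other lists, up to 4 genes per list and comparison with the largest called change and a group mean above 7.06 could be named, besides DDIT3 and ATF4. Of 75 list genes, 10 were not analysed here. Other normalizations, probe set choices, priors, thresholds and left-out arrays were tried as alternatives; background correction was not repeated. Fibroblast markers were also followed: 0 of 4 lay above the median gene level.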

Additional observations from a re-analysis of the deposited data

Results flagged for a closer look

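Limma's interaction term, which compares both drugs with the sum of the single-drug changes, passed for 4 of 65 genes of the pathway lists (6.15%), beside 1.28% of all genes higher and 2.44% lower. Of these, DDIT3 and FOXO1 passed in fewer than 10 of the 20 alternatives. DDIT3 gave an interaction of 2.07 (log2), and over 20 alternatives it lay between 1.70 and 2.45 and passed in 9 of them. FOXO1 gave -0.58, ranged from -0.65 to -0.48, and passed in 7 of 20. HTRA2, which encodes a mitochondrial protease that binds XIAP, gave 0.33, ranged from 0.30 to 0.41, and passed in 19 of 20. TNFAIP8 gave -0.27, ranged from -0.31 to -0.19, and passed in 12 of 20.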

How the results depend on the processing

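Of 837 values of the 9 genes under alternatives, 760 kept direction and side of the threshold, 35 lost the call, 16 gained one and 26 changed sign, mostly at values near 0. Centring each array on its median gave TNFSF10 -0.10, TNFRSF10C -0.0843 (SAHA against DMSO), TNFRSF10D -0.12 and FADD -0.0186 (pargyline), and interactions of 0.00896 for TNFSF10, 0.0458 for TNFRSF10C and 0.0708 for FADD. Quantile normalization gave TNFSF10 -0.0168 (SAHA) and TNFRSF10C 0.00929 (pargyline). The mean of all probe sets gave TNFRSF10C 0.00116 and CFLAR 0.19 (pargyline) and a TNFRSF10B interaction of 0.0714. The causes of these sign changes were not tested.

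Counts of the 9 genes moved as follows. At an adjusted p under 0.01, 1 was higher with SAHA and 1 with pargyline, and both drugs against SAHA left 0 higher and 0 lower. Centring gave 3 lower with pargyline, 6 lower with both drugs and 0 higher for both drugs against SAHA. A fit of only the groups compared gave 1 lower with pargyline, and 0 higher and 0 lower for both drugs against SAHA. The mean of all probe sets gave 2 higher with both drugs, 0 lower for both drugs against SAHA and 1 lower for the interaction, as did leaving out dim genes (1).

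Over all genes, 1014 higher and 891 lower with pargyline became 592 and 355 at 0.01, and 6168 were lower with centring. With both drugs 2872 lower became 7519 with centring. Both drugs against SAHA gave 943 higher and 1042 lower, but 616 and 614 with only those groups and 452 and 499 at 0.01. The interaction gave 153 higher and 292 lower, but 28 and 64 at 0.01. Under centring the higher share of calls was 36.9% with SAHA (otherwise 49.9%), 12.4% with pargyline (53.2%), 25% with both drugs (50.3%), 34.7% for both drugs against SAHA (47.5%) and 50.6% for the interaction (34.4%).

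The replicate block raised the genes higher in the interaction to 275. Among 148 values of named genes it changed 1 call, the FOXO1 interaction (adjusted p = 0.0541), and 0 of the 9 genes' calls.

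Leaving out 1 array gave 1 to 2 of the 9 genes higher with pargyline, and 0 to 1 higher and 0 to 1 lower for both drugs against SAHA, with 0 to 1 lower for the interaction. Over all genes it gave 479 to 859 lower with pargyline, 607 to 926 higher and 632 to 1069 lower for both drugs against SAHA, and 78 to 236 higher and 160 to 420 lower for the interaction. Signs changed within -0.0282 to 0.0199 for TNFSF10 with SAHA, -0.0724 to 0.0180 for TNFSF10, -0.0190 to 0.00820 for TNFRSF10C, -0.00908 to 0.0294 for TNFRSF10D and -0.0312 to 0.32 for DDIT3 with pargyline. For both drugs against SAHA they did so within -0.61 to 0.13 for TNFRSF10D and -0.57 to 0.00825 for FAS, and for the interaction within -0.62 to 0.12 for TNFRSF10D, -0.42 to 0.0242 for TNFRSF1A and -0.0585 to 0.0433 for FADD.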

Other observations

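Probe sets listed for both LOC254896 and TNFRSF10C were left out of the gene values because they name more than 1 gene. The 2 such probe sets read between 2.60 and 2.69 and between 1.96 and 2.03 over the 12 arrays.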
